A study of Rattus norvegicus with 12 samples.

Results

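RNA levels of heat shock proteins and their co-chaperones were compared between 6 PCK rats, whose livers are cystic, and 6 Sprague Dawley rats as controls. Of 16592 genes named on the arrays, 87 belonged to these families. They were chosen by gene symbol. In 75 the symbol began with Hspa, Hspb, Hspd, Hspe, Hsph, Hsp90, Dnaja, Dnajb or Dnajc, or with Cct and a number. The rest came from 15 genes listed by name, of which 13 had a named probe set. Hsph1 was chosen both ways. Ahsa1 and St13, the other two, and Hsp90aa1, Hspa1a and Hspa8, abundant or inducible members of the same families, had no named probe set and were not analysed here. No cut on a measured value entered the choice, but the families were proposed with the PCK against control differences of these same arrays known. The differences and their adjusted p are therefore a description of each gene, and the counts are not independent evidence about the families.

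The PCK rat carries a mutation in Pkhd1, the gene of human autosomal recessive polycystic kidney disease, in every cell, and forms cysts in bile ducts and kidneys. The labels give its strain as Crj:CD/SD and that of the control rats as Sprague Dawley, so strain background and disease cannot be told apart. All 12 rats were males of 10 weeks on a standard diet, and their livers were snap-frozen after isoflurane anaesthesia. RNA levels were measured with 1 Affymetrix array for each rat, and values are log2 signals. The number of arrays limits the precision, and the labels call them biological replicates.

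Chaperones bind unfolded proteins and help them to fold, assemble or be degraded. Hsp70 proteins take up unfolded chains handed over by J proteins, which carry the Dnaj names, and exchange factors such as Hsph1 release them. Hsp90 completes the folding of signalling proteins with a changing set of co-chaperones, small heat shock proteins hold clients without using ATP, and the ring-shaped CCT complex folds actin and tubulin. Many of the cytosolic members are induced together by the transcription factor HSF1, which binds repeats of the bases GAA and TTC in promoters, known as heat shock elements. In liver these genes respond to fever, feeding time and protein damage.

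Promoters are shown first because several members that were lower in PCK livers hold this element. Whether the element goes with a lower level was not tested. A promoter window of 300 bases, drawn as 250 before to 50 after a transcription start, was taken from a RefSeq table (build GRCr8) for 71 of the 87 members. The window began 250 bases before the outermost start in the RefSeq gene table for 39 of them and elsewhere for 32, with Chordc1 and Hspd1 among the 32, so which start each window follows is not known for every gene. A heat shock element of 13 bases, searched as GAANNTTCNNGAA and its reverse complement TTCNNGAANNTTC so that both strands were covered, was present in 6 of the 71 windows (8.45%), against 0.548% of the 14609 windows of genes on the array and 0.798% of all 33469 windows. The shorter forms GAANNTTC and TTCNNGAA, each its own reverse complement and each contained in a 13-base match, were present in 35.2% of member windows, against 13.2% of windows of genes on the array. The 6 genes were Hsph1, Chordc1, Dnaja1, Cct4, Hspe1 and Hspd1. The last pair lie head to head and share 211 bases of window, with the same 2 overlapping matches, so they count as a single stretch of DNA. A match describes letters in the window and does not show that a factor bound there.

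The windows are those of Hsph1 (chr12:10427118-10427417, plus strand), Chordc1 (chr8:23650571-23650870, plus strand), Dnaja1 (chr5:60638154-60638453, plus strand), Hspe1 (chr9:64084077-64084376, plus strand) and Cct4 (chr14:101192807-101193106, plus strand), with the 13-base matches in capitals. Stip1 (chr1:213657605-213657904, minus strand) is set beside them as a gene that was lower by about as much as Chordc1 and holds no 13-base match, and its capitals mark an 8-base form. All are written 5′ to 3′ in the direction of the gene.
Hsph1: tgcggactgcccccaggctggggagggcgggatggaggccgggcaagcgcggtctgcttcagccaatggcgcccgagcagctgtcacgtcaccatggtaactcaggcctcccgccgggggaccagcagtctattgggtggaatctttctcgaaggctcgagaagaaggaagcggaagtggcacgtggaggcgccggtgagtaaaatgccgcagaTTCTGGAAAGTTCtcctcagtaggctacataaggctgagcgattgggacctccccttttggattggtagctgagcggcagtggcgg
Chordc1: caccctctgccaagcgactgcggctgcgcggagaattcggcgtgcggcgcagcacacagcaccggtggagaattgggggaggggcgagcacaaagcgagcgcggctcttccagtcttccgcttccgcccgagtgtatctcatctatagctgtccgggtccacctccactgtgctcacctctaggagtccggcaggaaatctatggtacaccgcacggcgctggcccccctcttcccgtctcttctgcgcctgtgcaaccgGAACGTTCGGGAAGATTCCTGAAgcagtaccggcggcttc
Dnaja1: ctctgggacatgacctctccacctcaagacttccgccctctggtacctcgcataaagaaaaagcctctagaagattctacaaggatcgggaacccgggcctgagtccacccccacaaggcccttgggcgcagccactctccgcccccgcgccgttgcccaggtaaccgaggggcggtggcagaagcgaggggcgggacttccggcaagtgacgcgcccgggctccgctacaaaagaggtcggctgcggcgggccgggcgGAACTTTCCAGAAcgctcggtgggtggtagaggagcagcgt
Hspe1: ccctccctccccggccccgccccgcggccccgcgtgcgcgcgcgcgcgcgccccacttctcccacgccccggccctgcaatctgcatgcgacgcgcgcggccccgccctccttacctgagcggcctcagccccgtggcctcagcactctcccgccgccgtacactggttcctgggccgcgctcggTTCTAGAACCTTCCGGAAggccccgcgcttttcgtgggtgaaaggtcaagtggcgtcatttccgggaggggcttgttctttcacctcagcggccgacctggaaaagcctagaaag
Cct4: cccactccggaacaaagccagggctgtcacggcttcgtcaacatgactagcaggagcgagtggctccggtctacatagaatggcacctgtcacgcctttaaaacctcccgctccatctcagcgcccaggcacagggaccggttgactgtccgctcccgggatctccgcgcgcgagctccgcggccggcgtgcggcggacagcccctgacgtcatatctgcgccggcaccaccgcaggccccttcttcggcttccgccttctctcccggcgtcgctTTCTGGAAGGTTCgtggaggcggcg
Stip1: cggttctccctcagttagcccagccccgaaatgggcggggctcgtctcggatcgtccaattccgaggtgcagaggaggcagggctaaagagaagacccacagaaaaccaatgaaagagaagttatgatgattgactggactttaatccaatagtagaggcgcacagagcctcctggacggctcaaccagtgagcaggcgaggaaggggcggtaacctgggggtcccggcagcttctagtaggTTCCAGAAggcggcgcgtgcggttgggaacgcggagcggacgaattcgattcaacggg

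Positions were counted from 1 at the 5′ end of each window. In Chordc1, 3 overlapping matches ran from base 261 to base 283. The match of Hsph1 lay at 215 to 227, that of Dnaja1 at 260 to 272, that of Cct4 at 276 to 288 and those of Hspe1 between 186 and 203. Of the 6 genes with a match, 5 were lower in PCK livers in the test below, and Hspd1 was not called. Among all 87 members 51.7% were lower, and over all genes 21.0%. The share among member windows without a match was not counted, so the 6 genes cannot be set against it.

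Among the 87 members, 45 were lower in PCK livers (51.7%) and 5 were higher (5.75%), and 37 did not pass the test. The test was limma on the log2 signals, with Benjamini-Hochberg adjustment over all named genes and a call at an adjusted p under 0.05. Over all 16592 genes the same test called 21.0% lower and 17.4% higher, 38.3% in all. In 25 members (28.7%) every PCK value lay below every control value, and in 5 (5.75%) every PCK value lay above, where 10.6% and 11.0% of all genes did so. The median log2 difference of the members, PCK minus control, was -0.11, and that of all genes was -0.0067. With a difference of at least 1.2-fold also required, 25 members were lower and 2 were higher, which is 28.7% and 2.30%, against 7.17% and 7.55% of all genes.

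**Figure D1:**
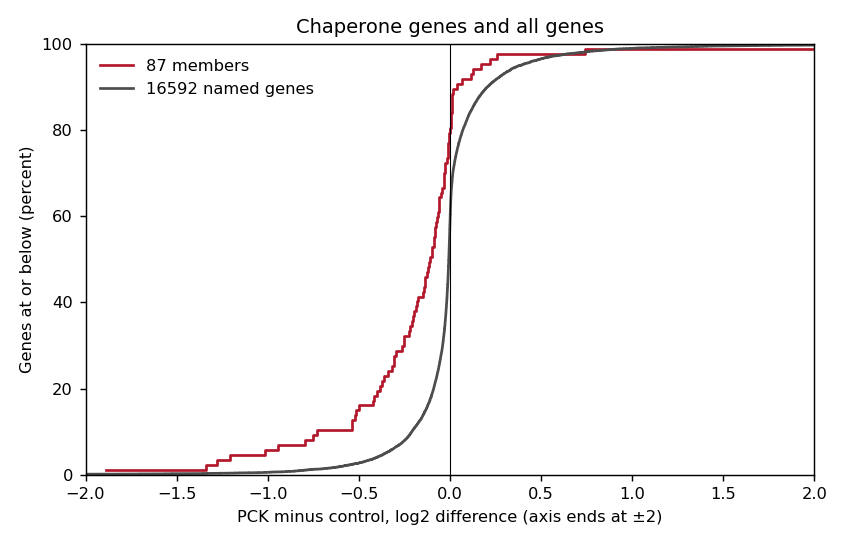
Cumulative share of genes (percent) against the log2 difference, PCK minus control, for the 87 members in red and the 16592 named genes in grey. The members' curve lies left of that of all genes over most of the axis, with medians of -0.11 and -0.0067. Below 0 lay 70 of 87 members and 9696 of the 16592 named genes.

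Some members were dim, though a smaller share than over all genes. In both groups 19 of the 87 had a mean below 5.66, the median of the table, as did 7564 of the 16592 named genes. Below that value signal could not be told from background, because there are no detection calls. A mean over all 12 arrays above 5.66 was found for 68 members. When only the 8730 genes above it were tested, 44 of the 68 members (64.7%) were lower and 4 (5.88%) were higher, where 30.8% and 24.4% of those genes were. In whole liver, fewer cells of a type and less RNA in each cell cannot be told apart.

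Among the 87 members, 8 were co-chaperones of Hsp90. Of these, 7 were lower in PCK livers and none was higher, with a median log2 difference of -0.84 over the 8. In all 7 the groups did not overlap. Hsp90 partners outside the 87 are not in this count. Of such partners measured, Fkbp8 was higher by 0.29, Sgta by 0.28, Stub1 by 0.21 and Unc45a by 0.195. Tomm34 was lower at -0.10 and Ttc4 at -0.097, and Ppid, Ppp5c, Sugt1 and Nudc did not pass. Chordc1, a zinc-binding partner of Hsp90, ranged from 7.67 over a median of 7.80 to 7.91 in PCK livers, against 8.53, 9.27 and 9.54 in control livers. Its difference was -1.34 ± 0.15 (log2, SE; limma adjusted p = 4.36e-05), a PCK to control ratio of 0.396. All PCK livers lay below all control livers, and control livers 5 and 6 were the lowest of their group, at 8.85 and 8.53.

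Stip1, the adaptor Hop that links Hsp70 to Hsp90, had a lowest, median and highest signal of 9.40, 9.57 and 9.70 in PCK livers, against 10.47, 10.92 and 11.12 in control livers. It fell by 1.28 ± 0.10 (log2, SE; limma adjusted p = 4.77e-06), to a ratio of 0.412. Ahsa2, a relative of the Hsp90 ATPase activator, had 7.26, 7.72 and 7.98 in PCK livers, against 8.65, 8.87 and 9.03 in control livers, a difference of -1.21 ± 0.12 (log2, SE; adjusted p = 1.53e-05). All PCK livers were below all control livers for both genes. Cacybp, a partner of ubiquitin ligases with a domain that binds Hsp90, had 9.58, 9.68 and 9.82 in PCK livers, against 10.45, 10.64 and 10.78 in control livers, a difference of -0.94 ± 0.064 (log2, SE; adjusted p = 1.38e-06).

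Fkbp4 and Fkbp5, immunophilins that join Hsp90 in steroid receptor complexes, were lower too. Fkbp4 had 9.86, 9.98 and 10.14 in PCK livers, against 10.59, 10.73 and 10.83 in control livers (-0.73 ± 0.059, log2, SE; adjusted p = 4.37e-06). Fkbp5, which is also a glucocorticoid target, had 5.64, 5.71 and 5.75 in PCK livers, against 5.90, 6.01 and 6.23 in control livers (-0.34 ± 0.052; adjusted p = 0.000356). Signals of Fkbp5 in PCK livers were near 5.66, which limits what its fold difference can say. Ptges3, the p23 protein that stabilises closed Hsp90, averaged 8.44 ± 0.064 in PCK livers and 8.82 ± 0.0945 in control livers (SD, n = 6 each), a difference of -0.38. Cdc37, which delivers protein kinases to Hsp90, averaged 9.26 ± 0.0973 in PCK livers and 9.28 ± 0.132 in control livers (SD, n = 6 each) and did not pass the test (adjusted p = 0.854).

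Of the Hsp90 proteins themselves, Hsp90ab1, the constitutive cytosolic form, had 11.66, 11.74 and 11.79 in PCK livers, against 12.03, 12.12 and 12.31 in control livers. It fell by 0.40 ± 0.040 (log2, SE; limma adjusted p = 1.75e-05), with no overlap between groups. Hsp90b1, the form of the endoplasmic reticulum, had 12.46, 12.50 and 12.55 in PCK livers, against 12.28, 12.67 and 12.72 in control livers, and did not pass (-0.09 ± 0.066; adjusted p = 0.335). Control liver 5 was the lowest of all 12 for Hsp90b1, and without it the gene was called lower (-0.15; adjusted p = 0.00373).

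**Figure D2:**
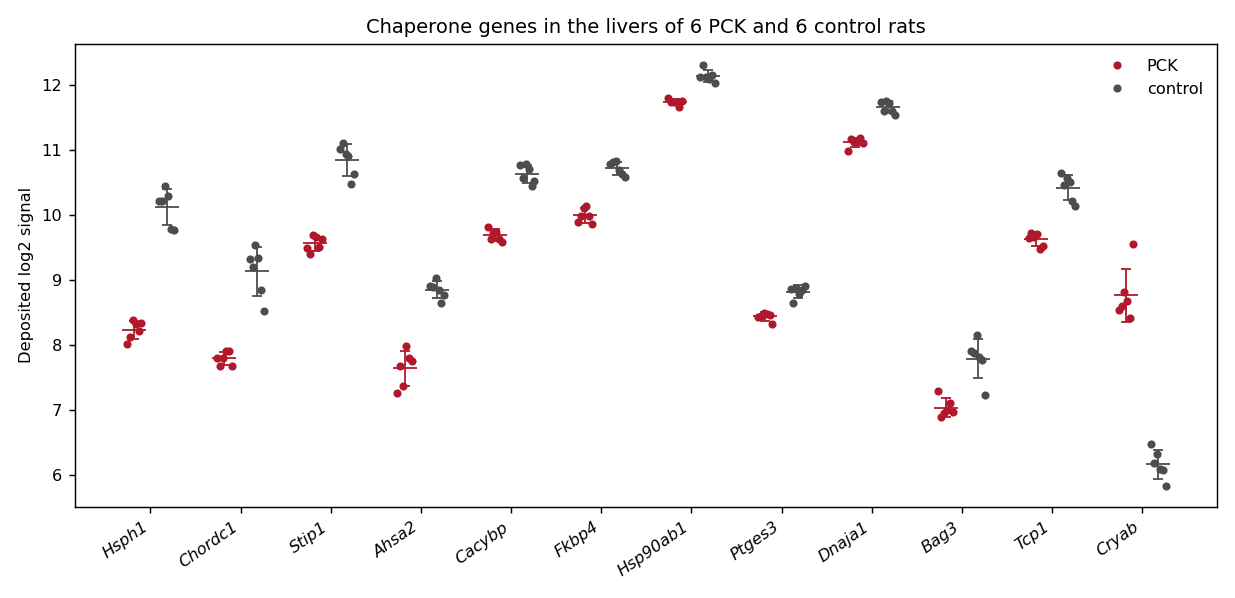
Deposited log2 signal (vertical axis) of 12 chaperone genes, with a point for each of 6 PCK livers in red and 6 control livers in grey, and bars at the mean ± SD. PCK points lie below control points without overlap for all genes shown except Bag3, whose groups overlap, and Cryab, whose PCK points lie above.

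Among the partners of Hsp70, Hsph1 had the largest fall of all 87 members. Hsph1 is the heat-inducible Hsp110, an exchange factor that reloads Hsp70 with ATP. It had 8.02, 8.27 and 8.38 in PCK livers, against 9.78, 10.22 and 10.45 in control livers. It fell by 1.89 ± 0.12 (log2, SE; limma adjusted p = 9.28e-07), to a ratio of 0.270, and the difference stayed between -1.96 and -1.82 when any single array was left out. Control livers 5 and 6, at 9.79 and 9.78, were again the lowest of their group and still lay well above the highest PCK liver.

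Bag3, an exchange factor that sends Hspb8 clients to autophagy, averaged 7.04 ± 0.148 in PCK livers and 7.79 ± 0.304 in control livers (SD, n = 6 each; -0.75, adjusted p = 0.000895). Its groups overlapped, since PCK liver 1 was at 7.30 and control liver 6 at 7.23. Hspa4l, another Hsp110 relative, went the other way, with 6.12, 6.44 and 6.55 in PCK livers, against 5.53, 5.65 and 5.75 in control livers (0.74 ± 0.070, log2, SE; adjusted p = 1.28e-05). Its control mean of 5.65 lay just below the table median, which limits what its fold difference can say. The constitutive Hsp110 gene Hspa4 averaged 9.42 in PCK livers and 9.55 in control livers and did not pass (-0.14; adjusted p = 0.0681), and without control liver 6 it was called (-0.18; adjusted p = 0.00845). Hspbp1, an Hsp70 exchange factor, did not pass (-0.12; adjusted p = 0.0520).

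Of 8 Hsp70 genes measured, 2 were lower and none higher, with differences between -0.19 and 0.0078, and 4 of them lay below the table median in both groups. Hspa1b, the stress-inducible Hsp70, had 5.41, 5.47 and 5.49 in PCK livers, against 5.48, 5.62 and 5.72 in control livers (-0.13 ± 0.035, log2, SE; adjusted p = 0.0106). The means of both groups were below 5.66, where signal and background cannot be told apart, and near-identical Hsp70 copies may share its probes. Hspa9, the mitochondrial Hsp70, averaged 11.33 in PCK livers and 11.42 in control livers (-0.09; adjusted p = 0.0229), and without PCK liver 5 it was no longer called (-0.081; adjusted p = 0.0509).

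J proteins, which choose the clients of Hsp70, were lower in 19 of 41 (46.3%) and higher in 3 (7.32%). Over all genes 21.0% were lower and 17.4% higher. Of 4 type A members 3 were lower. Dnaja1, the main cytosolic partner of Hsp70, had 10.99, 11.12 and 11.19 in PCK livers, against 11.53, 11.66 and 11.76 in control livers, without overlap (-0.54 ± 0.046, log2, SE; limma adjusted p = 6.22e-06). Dnaja3 of the mitochondrion differed by -0.30 and Dnaja4 by -0.25. Dnaja4 averaged 5.63 in PCK livers and 5.88 in control livers, close to the table median.

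Of 12 type B members 3 were lower and none higher. Dnajb9, an endoplasmic reticulum J protein, averaged 8.43 ± 0.287 in PCK livers and 8.93 ± 0.318 in control livers (SD, n = 6 each; -0.50, adjusted p = 0.0329). It lost its call without any of PCK livers 1, 2, 3 and 6 or control livers 1 and 3, with an adjusted p of 0.0679, 0.0707, 0.0652, 0.0535, 0.0679 and 0.0677 in that order. Dnajb14, a membrane J protein of the endoplasmic reticulum, differed by -0.12 (adjusted p = 0.00269), and Dnajb7 by -0.026, at the bottom of the signal range. Dnajb7 lost its call without any of PCK livers 1, 2, 3, 4 and 6 or control livers 1 to 4, with an adjusted p between 0.0534 and 0.0743. Dnajb1, the inducible Hsp40, had 7.75, 7.97 and 8.17 in PCK livers, against 7.77, 8.51 and 8.79 in control livers, and just missed the threshold (-0.42 ± 0.15; adjusted p = 0.0502). Control livers 5 and 6, at 8.11 and 7.77, lay inside the PCK range and the 4 others above it. Dnajb1 was called without control liver 5 (-0.47; adjusted p = 0.0379), without control liver 6 (-0.54; adjusted p = 0.00384) or without PCK liver 5 (-0.46; adjusted p = 0.0496).

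Of 25 type C members 13 were lower and 3 higher. Dnajc12, which in humans is the co-chaperone of phenylalanine hydroxylase and related enzymes, had 8.06, 8.26 and 8.35 in PCK livers, against 9.03, 9.24 and 9.44 in control livers. It fell by 1.02 ± 0.076 (log2, SE; limma adjusted p = 2.61e-06), a ratio of 0.495, and the groups were far apart. Dnajc21, a factor of ribosome assembly, fell by 0.36 ± 0.019 (log2, SE; adjusted p = 2.69e-07), Dnajc11 of the mitochondrial membrane by 0.32 and Dnajc8, a splicing factor partner, by 0.30. Dnajc13, an endosomal J protein, averaged 8.33 ± 0.0633 in PCK livers and 8.07 ± 0.0543 in control livers (SD, n = 6 each; 0.26, adjusted p = 9.84e-05). Dnajc16 was higher by 0.22, and Dnajc5b, at the bottom of the range, by 0.041.

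**Figure D3:**
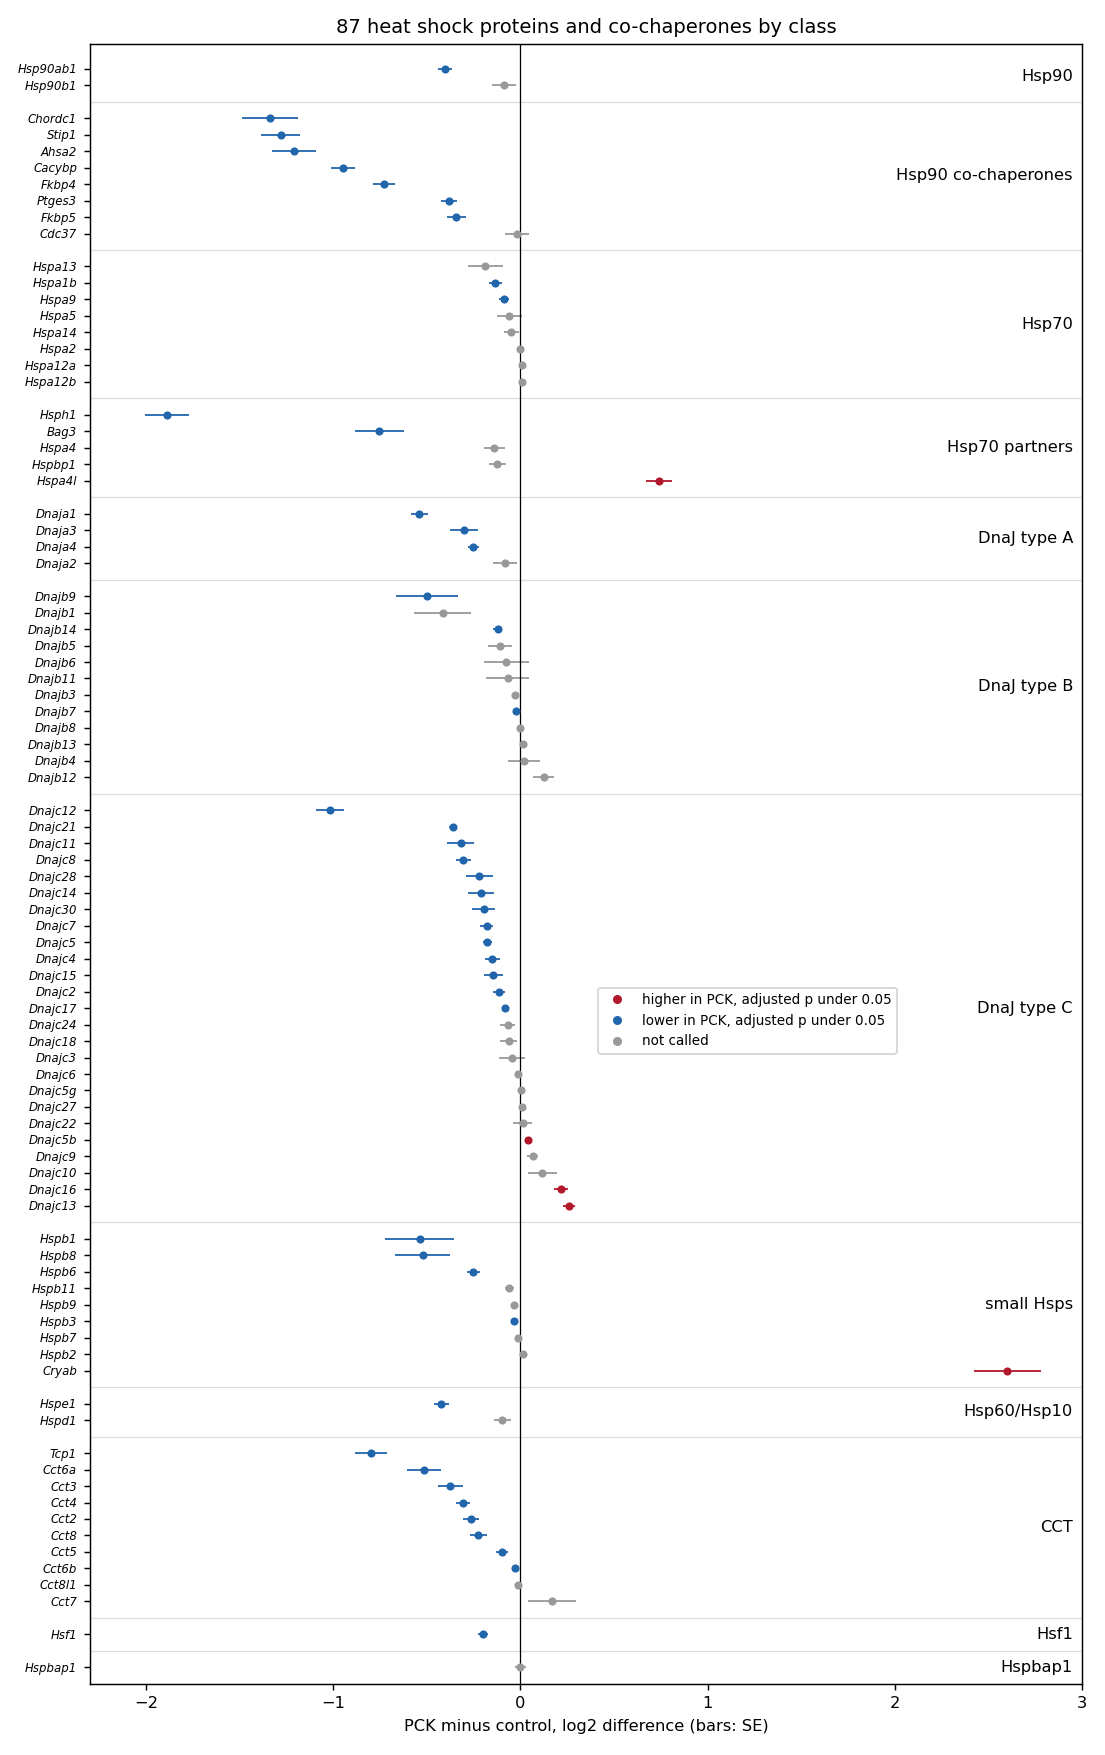
Log2 difference, PCK minus control, with SE (horizontal axis) for each of the 87 members, grouped by class and coloured by the limma call over all genes. The Hsp90 co-chaperones, Hsph1 and most CCT subunits lie left of 0, and Cryab, at 2.60, lies far to the right of every other member.

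Small heat shock proteins split, and 5 of 9 lay below the table median in both groups. Cryab, the alpha B crystallin of lens, muscle and, in rat liver, stellate cells, had 8.41, 8.64 and 9.56 in PCK livers, against 5.84, 6.14 and 6.48 in control livers. It rose by 2.60 ± 0.18 (log2, SE; limma adjusted p = 1.55e-06), a 6.07-fold difference with no overlap. PCK liver 6 was the highest, and without it the difference was 2.44, the smallest value when any array was left out. Hspb8, which works with Bag3, averaged 8.39 ± 0.218 in PCK livers and 8.91 ± 0.314 in control livers (SD, n = 6 each; -0.52, adjusted p = 0.0157), with overlapping groups.

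Hspb1, the inducible Hsp27, had 5.58, 5.70 and 5.95 in PCK livers, against 5.80, 6.16 and 7.02 in control livers (-0.54 ± 0.18; adjusted p = 0.0374). Its control spread was wide, and the call was lost without any of PCK livers 2 to 6 or control livers 3 and 4, with an adjusted p between 0.0613 and 0.0767. Hspb6, a muscle-rich relative, differed by -0.25 (adjusted p = 0.000179). The PCK means of Hspb1 and Hspb6, at 5.72 and 5.67, lay near the table median. Hspb2, the gene next to Cryab in mammals, averaged 5.49 in PCK livers and 5.48 in control livers and did not pass (adjusted p = 0.502).

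Markers of cells that could carry Cryab were read beside it. Of 10 stellate cell markers 5 were higher, among them Rgs5 by 1.42 and Dcn by 2.01. The 4 lower ones were Lrat (-0.24), Reln (-0.29), Hgf (-0.44) and Colec11 (-0.39), so the list did not move as a group. The mean signal over all 10 ran from 7.42 to 7.71 in PCK livers, against 6.92 to 7.26 in control livers. Of 12 muscle markers 4 were higher and 2 lower, with 8 below the table median in both groups, and their mean signal ran from 5.63 to 5.71 in PCK livers, against 5.56 to 5.65 in control livers. Of 9 bile duct markers 8 were higher, with a mean signal of 6.27 to 6.81 in PCK livers, against 5.71 to 5.75 in control livers. Of 9 macrophage markers 8 were higher, with 9.25 to 9.73 in PCK livers, against 8.25 to 8.87 in control livers. The bile duct keratin Krt19 was highest in PCK liver 6 as well, at 8.28, where the 5 other PCK livers had 7.38 to 7.70. PCK liver 6 was also the highest PCK liver for markers in the other lists. These included the stellate markers Rgs5 (8.875) and Dcn (10.66), the macrophage marker Lyz2 (11.68) and the muscle marker Tagln (6.83). It was not the highest for every marker, since Pdgfrb was at 8.51 in PCK liver 6 and 8.63 in PCK liver 3. The part of these cells in the rise of Cryab was not tested.

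The CCT chaperonin was lower in 8 of 10 measured genes and higher in none, with a median of -0.24. Tcp1, its alpha subunit, had 9.48, 9.65 and 9.73 in PCK livers, against 10.14, 10.48 and 10.64 in control livers, without overlap. It fell by 0.80 ± 0.086 (log2, SE; limma adjusted p = 3.21e-05), to a ratio of 0.575. Cct6a differed by -0.52, Cct3 by -0.37, Cct4 by -0.31, Cct2 by -0.26 and Cct8 by -0.22. The fall was uneven over a complex whose rings hold each subunit once. Cct5 averaged 10.60 in PCK livers and 10.70 in control livers (-0.10; adjusted p = 0.0298), and lost its call without any of PCK livers 1, 2, 5 and 6 or control livers 1, 2 and 4, with an adjusted p between 0.0527 and 0.0647. Cct7, at 8.51 in PCK livers and 8.34 in control livers, did not pass (0.17; adjusted p = 0.332). Cct6b, which is counted among the 8 lower genes at only -0.029, and Cct8l1, which did not pass, lay at the bottom of the range.

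Hspa5, the Hsp70 of the endoplasmic reticulum known as BiP, had 12.98, 13.07 and 13.11 in PCK livers, against 12.82, 13.20 and 13.26 in control livers (-0.06 ± 0.066; adjusted p = 0.527). As for Hsp90b1, control liver 5 was the lowest, and without it Hspa5 was called lower (-0.12; adjusted p = 0.0205), as was Hspa13 (-0.26; adjusted p = 0.0192). Dnajb11, Dnajc3 and Dnajc10, J proteins of the reticulum, differed by -0.067, -0.044 and 0.12 and did not pass.

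Hspe1, the Hsp10 lid of the mitochondrial chaperonin, had 9.59, 9.73 and 9.82 in PCK livers, against 10.10, 10.13 and 10.19 in control livers (-0.42 ± 0.041, log2, SE; adjusted p = 1.65e-05). Its partner Hspd1, the Hsp60 barrel encoded from the same promoter stretch, averaged 11.49 ± 0.0857 in PCK livers and 11.59 ± 0.0718 in control livers (SD, n = 6 each) and did not pass (-0.096; adjusted p = 0.104). Hspd1 was called without PCK liver 3 (adjusted p = 0.0455) or without control liver 6 (adjusted p = 0.0432).

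Hsf1 itself, the heat shock transcription factor, had 6.13, 6.19 and 6.26 in PCK livers, against 6.32, 6.40 and 6.45 in control livers. It fell by 0.20 ± 0.029 (log2, SE; limma adjusted p = 0.000227), to a ratio of 0.870, without overlap. HSF1 is regulated mainly as a protein, which the arrays do not measure. Hspbap1, kept only because its symbol starts like the small heat shock proteins, averaged 5.68 in both groups.

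**Figure D4:**
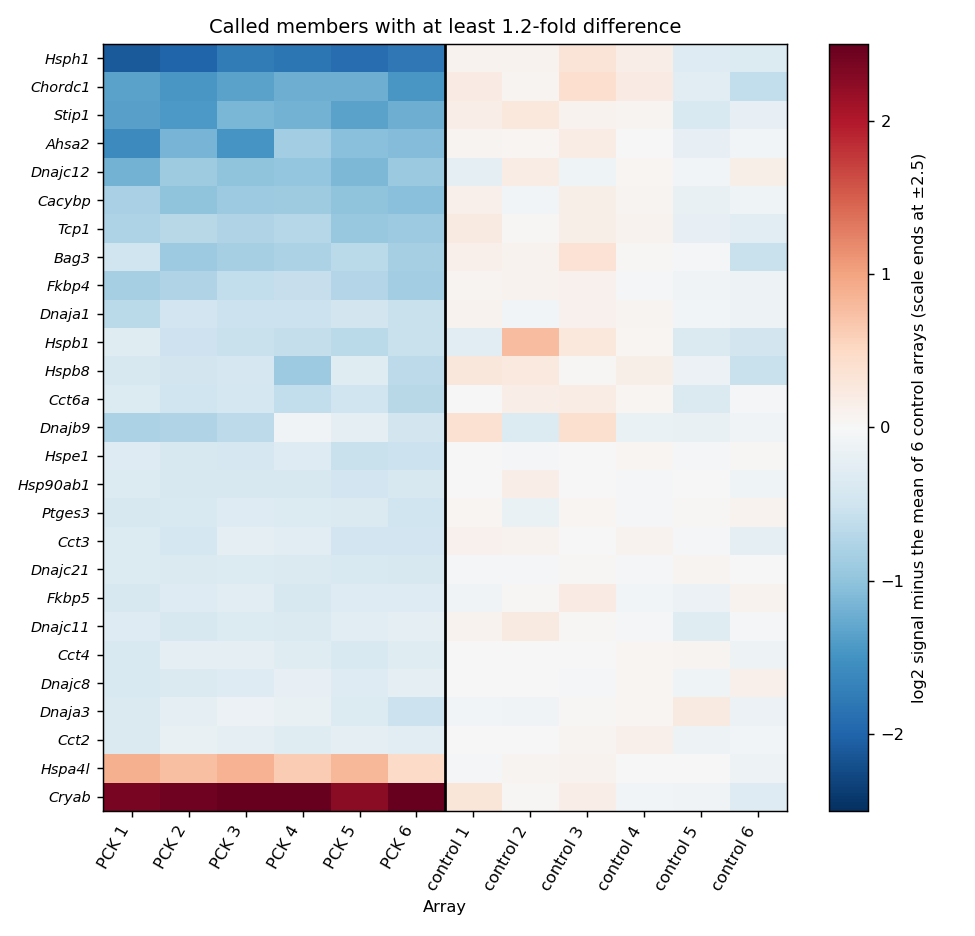
Log2 signal on each array minus the mean of the 6 control arrays (colour) for the 27 called members that differed by at least 1.2-fold, ordered by their difference. The 25 lower members are blue over the PCK arrays to an uneven degree. The colour scale is wide, so rows with small differences, such as Cct2 (-0.26) and Dnaja3 (-0.30), are pale over the PCK arrays. Dnajb9 in PCK 4 is a pale cell as well. Control 5 and control 6 are bluer than the other control arrays in rows such as Hsph1 and Chordc1.

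Livers of both groups differed in how often each was the lowest of its group. Of the 45 members called lower, control liver 6 was the lowest control array for 18, control liver 5 for 15, and each of the others for 6 or fewer. Among the PCK arrays, PCK liver 6 was the lowest for 12, PCK liver 1 for 11 and PCK liver 5 for 9. The same count over all genes was not made, so the unevenness cannot be called a trait of these members. Over the 6 control livers Hsph1 and Chordc1 correlated with r = 0.959 (exact permutation test, 2-sided p = 0.00278, adjusted p = 0.0167 over 6 relations) and Spearman's rho = 0.943 (exact p = 0.0167, adjusted p = 0.1). Without control livers 5 and 6, the farthest from the median of Hsph1, r was 0.921. Over the 6 PCK livers the same pair gave r = 0.111 (exact permutation p = 0.832) and rho = -0.0286 (exact p = 1.0), and the PCK values spanned a narrow range. Hsph1 and Dnaja1 gave r = 0.834 in control livers (exact p = 0.0306, adjusted p = 0.0917), 0.561 without control livers 5 and 6, with rho = 0.714 (exact p = 0.136). In PCK livers they gave r = 0.392 (exact p = 0.469) and rho = -0.0286 (exact p = 1.0). Hspa1b and Hsph1 gave r = 0.755 (exact p = 0.101) and rho = 0.486 (exact p = 0.356) in control livers and r = -0.077 (exact p = 0.885) and rho = 0.143 (exact p = 0.803) in PCK livers. The difference between groups in these correlations was not tested.

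With control livers 5 and 6 both left out, a choice made after the data were seen, 47 members were lower and 5 higher. The share of all genes called without these 2 livers was not counted, so the member counts cannot be set against it. Some clock genes differed between the groups as well. Per2, a repressor of the circadian clock, was between 5.96 and 6.27 in PCK livers, against 6.95 to 8.43 in control livers, where control liver 5 was the lowest. Of 14 clock genes 5 (35.7%) were lower and 2 (14.3%) higher. Over all genes 21.0% were lower and 17.4% higher, and over genes above the median signal 30.8% and 24.4%. The count by itself therefore does not set the clock genes apart. Cry1 was at -0.79, Cry2 at -0.62 and Npas2 at 0.74, while Dbp (-0.05) and Nr1d1 (0.07) did not pass. The hour at which livers were taken is not given in the sources used here, and the part of the clock in the chaperone differences was not tested. Of 9 glucocorticoid targets 1 (11.1%), Sgk1, was higher and 2 (22.2%), Fkbp5 and Dusp1, were lower, which is also near the shares of all genes. Of 10 immediate early genes 6 were higher, Klf6 by 1.92 and Egr1 by 1.81 among them, and 2 were lower.

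Of 33 other proteostasis genes measured, 9 (27.3%) were higher and 8 (24.2%) lower, with a median log2 difference of 0.0075. For genes above the median signal the shares were 24.4% higher and 30.8% lower, and for all genes 17.4% and 21.0%. Prefoldin subunits, which pass actin and tubulin to CCT, differed among themselves, with Pfdn1 higher by 0.36, Pfdn2 lower at -0.40 and Pfdn6 lower at -0.55. The CCT cofactors Pdcl and Pdcl3 were higher by 0.46 and 0.34, and the Hsp90-binding immunophilin Fkbp8 was higher by 0.29. Ppid, another immunophilin of Hsp90, did not pass (-0.093; adjusted p = 0.442). Of 9 hepatocyte markers 3 (33.3%) were lower and none higher, with differences from -0.29 to 0.13. Their mean signal of 13.16 to 13.23 in PCK livers, against 13.19 to 13.33 in control livers, lay near the top of the scale. Of 12 cell cycle genes all were higher, and their mean signal ran from 6.31 to 6.52 in PCK livers, against 5.72 to 5.82 in control livers. The part of these cell markers in the chaperone differences was not tested.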

How the data were processed

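The authors deposited log2 signals of 19239 probe sets on 12 arrays, from 5.14 to 13.98. The log2 unit was read from the values, and all columns share 1 sorted distribution, as quantile normalization gives. The array type and its summarisation were not given in the sources used here. The platform annotation named 16592 probe sets, 1 for each gene, and 2647 had no name. RefSeq held the same symbol for 13094, another for 3359 (Hspb11 is now Ift25) and none for 139, and platform symbols were kept.

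limma 3.58.1 in R 4.3.3 (lmFit, eBayes) was fitted across all named genes without a filter, PCK minus control, with Benjamini-Hochberg adjustment at 0.05. SE is the moderated standard error. The fit was tested on simulated data. Correlations used exact permutation tests over 6 arrays (scipy 1.17.1). The pair of Hspa8 and Dnaja1 was not analysed. Figures used matplotlib 3.10.9.

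The members, lists and alternatives were chosen with earlier results of these data known. By the rule, up to 4 called members of each class with the largest differences were named, or the 2 with the smallest p, and every listed member. The other 15 members followed through all settings were named after their values were seen.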

Additional observations from a re-analysis of the deposited data

Results flagged for a closer look

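In 2 of 100 groups of 6 arrays examined, 2 for each of 50 named members, a single array stood apart from its group by Dixon's criterion, where chance gives about 1 in 20. Cryab in PCK liver 6 was at 9.56, with the next PCK liver at 8.82 and the lowest at 8.41. Dnajc10 in control liver 5 was at 6.77, with the next control liver at 7.11 and the highest at 7.27.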

How the results depend on the processing

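Over 20 other settings, 35 of 50 members kept their sign and their side of the threshold, Hsph1, Chordc1, Stip1, Dnaja1, Tcp1 and Cryab among them. Leaving out each array gave 38 to 51 lower and 5 to 6 higher members. For these fits and for the block that follows, the share of all genes called was not counted, so the member counts stand without a background. The replicate number as a block gave 35 lower and 5 higher members, and among the 50 ended the calls of Dnajb7, Dnajb9, Hspa9 and Hspb1 and made that of Hspa4. Residuals of same-numbered arrays correlated between -0.137 and 0.165, so the numbers were not taken as pairs. A required 1.2-fold difference left 25 lower and 2 higher, and testing only genes above the median signal moved the members' median to -0.18, since dim members near 0 drop out. Centring on the brightest 25% of genes also ended the call of Dnajb7 (adjusted p = 0.0613). The sign turned for Hspbap1 (0.0015 with the brightest 25% of genes as centre, 0.016 with cyclic loess, and -0.018 to 0.015 without single arrays). Without single arrays it also turned for Cdc37 (-0.057 to 0.022), Dnajb11 (-0.17 to 0.0034) and Dnajc3 (-0.093 to 0.0081), none of them called, and the cause was not tested. Without the 2 arrays farthest from the median, r over PCK livers turned to -0.593 for Hsph1 with Chordc1 and to -0.915 for Hsph1 with Dnaja1, and r over control livers for Hsph1 with Chordc1 was 0.921, where 4 arrays cannot pass the adjusted threshold. The 19 members near the bottom of the range are limited by signal over background.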
